A study of Mus musculus with 4 samples.

Results

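The glutathione and thioredoxin system keeps the thiol groups of cell proteins reduced. Described here are 10 of its genes, Gclc, Gclm, Gss, Gsr, Slc7a11, Chac1, Txnrd1, Txn1, Srxn1 and Prdx1, taken by name from a deposited table of 54532 genes, in which each has 1 row. The libraries come from wild-type mouse CD4+ T cells of the spleen. The cells were naive at the start and were held for 3 days in conditions that favour T follicular helper (Tfh) cells, which help B cells make antibody. The control group had no added compound (2 libraries) and the other group had dimethyl fumarate, DMF (2 libraries). The labels used here give no dose, number of mice or purity of the cells. Values are FPKM, fragments scaled to gene length and to a library size that is given with the processing below. Levels of different genes can be set side by side only roughly, since the gap between the controls followed gene length.

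Glutathione is made from cysteine, glutamate and glycine. Cysteine enters many cells as cystine through the Slc7a11 transporter, glutamate-cysteine ligase (Gclc and Gclm) makes the dipeptide and Gss adds glycine. Gsr returns oxidised glutathione to its reduced form and Chac1 breaks glutathione down. Thioredoxin (Txn1) reduces protein disulfides and is itself reduced by Txnrd1, while peroxiredoxin (Prdx1) removes peroxide and is repaired by sulfiredoxin (Srxn1). DMF is an electrophile that reacts with thiols and activates Nrf2, a transcription factor known to drive many of these genes. The comparison asks what the RNA of this system looked like with and without DMF.

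Of the 10 genes, 6 had RNA levels above both controls in each DMF library: Slc7a11, Gclc, Gclm, Chac1, Txnrd1 and Srxn1. Gsr had less in both, and the DMF values of Gss, Txn1 and Prdx1 lay between the controls. The DMF over control ratios of mean FPKM were 2.63 for Slc7a11, 2.50 for Chac1, 1.93 for Gclc, 1.92 for Srxn1, 1.70 for Txnrd1 and 1.27 for Gclm, against 0.707 for Gsr. The level filter, a mean of 1 FPKM or more over the 4 libraries, left 12166 genes to test, of which 26.4% lay above both controls with DMF and 26.8% below both. The 9 members that passed this filter, all but Slc7a11, had group means above 1 FPKM with and without DMF. None of the 9 was called over all genes (limma on log2(FPKM + 1), adjusted p 0.327 to 0.861). Of all tested genes limma called 0, which is 0% (lowest adjusted p = 0.128), with 1150 at an unadjusted p under 0.05, and limma's voom on recovered reads also 0, with 1191. At that level limma gave 4 of the 9, all higher with DMF, where 3.14% of all tested genes were higher and 6.31% lower. voom called 0 members too, with 4 at an unadjusted p under 0.05. The members' median difference was 0.27 on the log2(FPKM + 1) scale, and that of all tested genes was -0.01. Differences on this scale understate those of low genes.

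**Figure D1:**
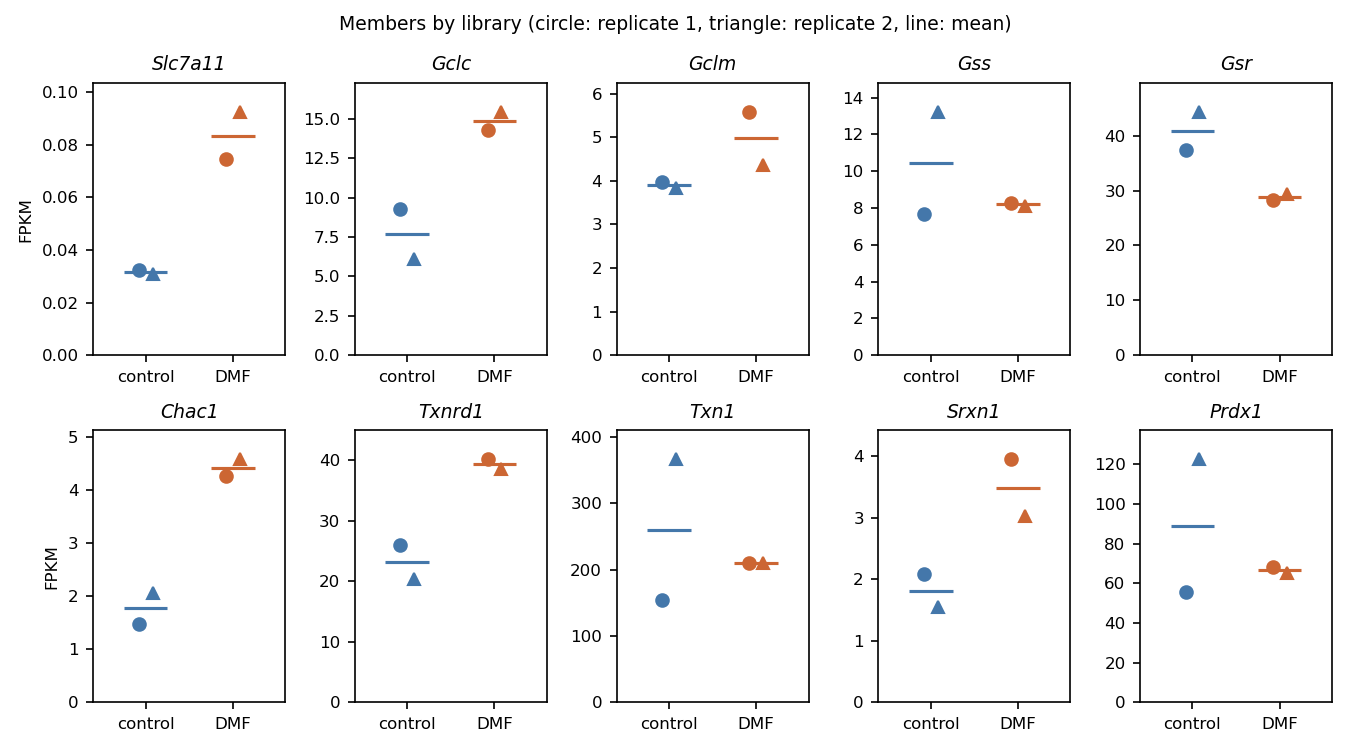
FPKM (vertical axes, each from 0) of the 10 genes in every library, with control in blue, DMF in orange, circles for replicate 1, triangles for replicate 2 and lines for group means. Gclc, Chac1, Txnrd1 and Srxn1 show DMF points well above the controls, Gsr shows them below, and for Txn1 (154 and 366 FPKM) and Prdx1 (55.5 and 122 FPKM) the controls enclose the DMF libraries.

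Control replicate 2 differed from the other 3 libraries, and this touches several values below. The libraries hold 15900118 to 17516953 reads. Log2 differences between the controls had an SD of 0.74 over genes, and those between the DMF libraries 0.32. Ribosomal protein genes held 14.3% of reads in control replicate 2 and 6.53% to 7.14% elsewhere. The labels do not say whether replicates came from separate mice or cultures, so p-values measure only the spread between these samples.

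Slc7a11 (ENSMUSG00000027737, chr3:49892526-50443614), the exchanger that brings in cystine, was barely detected. Its FPKM was 0.0324 and 0.0309 in control replicates 1 and 2, and 0.0746 and 0.0923 in DMF replicates 1 and 2. Behind these lie 8 and 6 reads in the controls and 19 and 24 in the DMF libraries. The ratio of pooled reads, scaled to the library sizes that the FPKM imply, was 2.63. Its 95% exact interval of 1.41 to 5.20 covers counting error only. All 10 genes are protein coding and their positions are those of GRCm38. Slc7a11 lay below the level filter and was not tested in the main comparison. With no filter its difference was 0.071 on the log2(FPKM + 1) scale (limma adjusted p = 0.675). Slc3a2, the heavy chain that Slc7a11 shares with other transporters, was abundant, at 67.2 ± 20.6 FPKM without DMF and at 73.6 ± 0.325 FPKM with it (SD, n = 2).

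Gclc (ENSMUSG00000032350, chr9:77754535-77794485), the catalytic subunit of glutamate-cysteine ligase and so the enzyme that limits glutathione synthesis, was higher with DMF. It was at 9.29 and 6.12 FPKM in the controls and at 14.3 and 15.4 FPKM in the DMF libraries. The groups did not overlap, and the difference was 0.89 ± 0.24 on the log2(FPKM + 1) scale (SE, limma adjusted p = 0.413), above that of 96.9% of tested genes. Gclm (ENSMUSG00000028124, chr3:122245557-122270732), the modifier subunit that makes the catalytic subunit more efficient, was at 3.98 and 3.85 FPKM in the controls and at 5.58 and 4.37 FPKM with DMF. DMF replicate 2 was only slightly above the controls, and the difference of 0.27 ± 0.20 (SE, limma adjusted p = 0.573) was exceeded by 26.6% of tested genes. With the gene length trend removed its groups overlapped, at 0.15. Gss (ENSMUSG00000027610, chr2:155563181-155592810), glutathione synthetase, was at 7.69 and 13.2 FPKM in the controls and at 8.28 and 8.12 FPKM with DMF. Both DMF libraries thus lay close to control replicate 1 and below control replicate 2. Its difference was -0.27 ± 0.29 (SE, limma adjusted p = 0.647).

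Gsr (ENSMUSG00000031584, chr8:33652523-33698163), glutathione reductase, was the one member below both controls. It was at 37.3 and 44.3 FPKM in the controls and at 28.4 and 29.4 FPKM with DMF. The groups did not overlap, and the difference of -0.48 ± 0.19 (SE, limma adjusted p = 0.543) was lower than that of 82.3% of tested genes.

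Chac1 (ENSMUSG00000027313, chr2:119351229-119354381), which cleaves glutathione and is a known target of the stress-activated factor ATF4, was among the members with the larger differences. It was at 1.48 and 2.06 FPKM in the controls (43 and 47 reads) and at 4.27 and 4.58 FPKM with DMF (128 and 140 reads). Both DMF libraries were well above both controls, with a difference of 0.98 ± 0.21 on the log2(FPKM + 1) scale (SE, limma adjusted p = 0.327), above that of 97.6% of tested genes. Chac2, its constitutive relative, was at 4.61 ± 0.272 FPKM without DMF and at 3.77 ± 1.07 FPKM with it (SD, n = 2), and its groups overlapped.

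Txnrd1 (ENSMUSG00000020250, chr10:82833951-82897712), the cytosolic selenoprotein that reduces thioredoxin, was at 26.0 and 20.3 FPKM in the controls and at 40.1 and 38.5 FPKM with DMF. With 2003 or more reads in each library it is the best counted of the members that were higher. The difference was 0.75 ± 0.21 (SE, limma adjusted p = 0.417). Its substrate Txn1 (ENSMUSG00000028367, chr4:57943373-57956411) was the most abundant member, at 154 and 366 FPKM in the controls and at 210.0 and 209.7 FPKM with DMF. The DMF libraries agreed closely and lay between the controls, so the direction depends on which control is read. Prdx1 (ENSMUSG00000028691, chr4:116685544-116700822) was next in level and showed the same arrangement, at 55.5 and 122 FPKM in the controls and at 68.1 and 65.3 FPKM with DMF. Their differences were -0.18 ± 0.49 for Txn1 and -0.30 ± 0.43 for Prdx1 (SE, limma adjusted p = 0.861 and 0.717). Srxn1 (ENSMUSG00000032802, chr2:152105516-152111376), the ATP-dependent enzyme that restores over-oxidised peroxiredoxins, was low, at 2.08 and 1.55 FPKM in the controls and at 3.95 and 3.04 FPKM with DMF. The groups did not overlap, with 104 and 61 reads against 204 and 160, and the difference was 0.67 ± 0.23 (SE, limma adjusted p = 0.507).

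In order of mean FPKM the controls ran Txn1, Prdx1, Gsr, Txnrd1, Gss, Gclc, Gclm, Srxn1, Chac1 and Slc7a11. With DMF, Txnrd1 stood above Gsr, Gclc above Gss and Chac1 above Srxn1, while the other places were the same. Control replicate 1 by itself also had Gclc (9.29 FPKM) above Gss (7.69 FPKM). Control replicate 2 by itself also had Chac1 (2.06 FPKM) above Srxn1 (1.55 FPKM). In the controls the neighbours Gss (10.4 ± 3.90) and Gclc (7.70 ± 2.24) did not differ beyond their spread, nor did Srxn1 (1.82 ± 0.373) and Chac1 (1.77 ± 0.410), all in FPKM (SD, n = 2). Within single libraries, Gsr over Txnrd1 was 1.44 and 2.18 in the controls and 0.707 and 0.762 with DMF. Gclc over Gclm was 2.33 and 1.59 in the controls and 2.56 and 3.53 with DMF. Txnrd1 over Txn1 was 0.169 and 0.0555 in the controls and 0.191 and 0.184 with DMF, so control replicate 1 was close to the DMF libraries and control replicate 2 far from them. Srxn1 over Prdx1 was 0.0375 and 0.0127 in the controls and 0.0581 and 0.0465 with DMF. A ratio of Gsr over Gss overlapped between groups. The other 4 ratios, all 5 chosen after the values were seen, did not, and with 2 libraries against 2 an exact two-sided permutation test cannot go below p = 0.333.

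The gap between the controls was read against gene length. In tested genes of 579 to 1444 bp control replicate 2 was above control replicate 1 by a median of 0.72 on the log2(FPKM + 1) scale, and in genes of 8933 to 40491 bp its median was -0.60. The shortest genes, 11 to 579 bp, had a median of 0. Txn1 (1051 bp) had a gap of 1.25, Prdx1 (3043 bp) of 1.13 and Gss (5915 bp) of 0.71. For Prdx1 and Gss the gap exceeded the median of genes of like length by 0.91 and 0.92. Gclc (3766 bp) and Srxn1 (2820 bp) went the other way, with gaps of -0.53 and -0.27, and Txnrd1 (7086 bp), at -0.34, was close to its length group at -0.37.

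**Figure D2:**
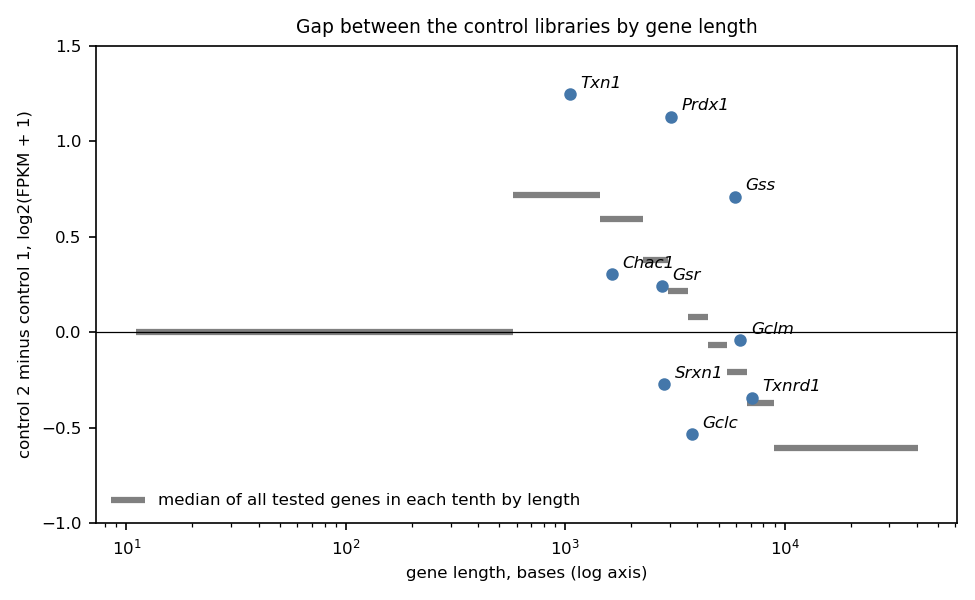
Control replicate 2 minus control replicate 1 in log2(FPKM + 1), vertical axis, against gene length in bases, log axis. Blue points are the 9 tested members and grey bars the medians of all tested genes in 10 groups by length, which fall from 0.72 to -0.60 past the group of shortest genes, while Txn1, Prdx1 and Gss lie above the bars.

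Leaving out either control kept the direction of Gclc, Gclm, Chac1, Txnrd1, Srxn1 and Gsr. Leaving out control replicate 2 turned that of Gss, Txn1 and Prdx1, which leaving out control replicate 1 did not. Without control replicate 2 the differences of the 3 were 0.083, 0.45 and 0.26, and without control replicate 1 they were -0.63, -0.80 and -0.87. By position alone, 9 of the 10 members lay above control replicate 1 in both DMF libraries and 1 below (43.4% and 39.6% of tested genes), and 6 lay above control replicate 2 and 4 below (43.6% and 49%). In a fit with 1 control, that control is assumed to vary like the DMF pair. Without control replicate 2, limma called 5 members: Chac1, Gclc, Txnrd1 and Txn1 as higher and Gsr as lower (adjusted p 0.0244 to 0.0476), where 2.77% of all tested genes were called higher and 5.51% lower. Without control replicate 1 it called 8, with Chac1, Gclc, Txnrd1 and Srxn1 higher and Gsr, Gss, Txn1 and Prdx1 lower, against 27.6% and 33.4% of all tested genes. The 2 fits share both DMF libraries, so their calls are not independent of each other, and Txn1 was called in opposite directions.

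**Figure D3:**
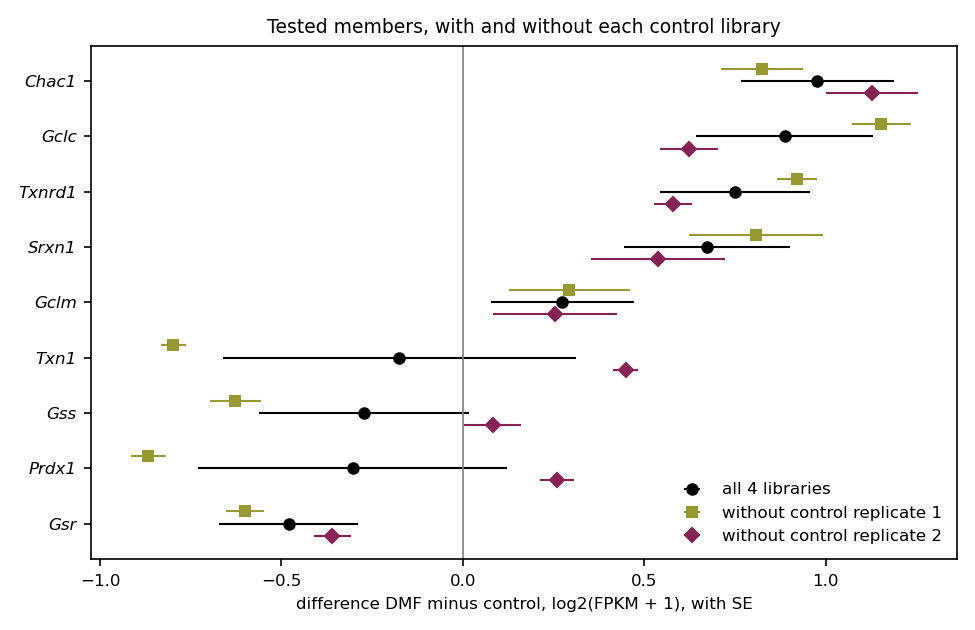
Difference DMF minus control in log2(FPKM + 1) with its SE (horizontal axis) for the 9 tested members, from all 4 libraries (black circles) and without control replicate 1 (olive squares) or 2 (purple diamonds). Chac1, Gclc, Txnrd1, Srxn1 and Gclm stay right of 0 and Gsr left of it in all 3 fits, whereas Txn1 runs from -0.80 to 0.45.

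Promoter sequence is shown for 4 members, Srxn1, Prdx1, Slc7a11 and Chac1, because their windows hold the less common of the motifs searched, which Nrf2 or ATF4 is known to bind. Gclm and Txnrd1, whose windows hold only the more common short core, are not shown. RefSeq start sites (GRCm38.p6) were found for 8 of the 10 members, with 10 windows of 250 bases upstream, and both strands were searched. Gclc and Gsr had no window and were not searched. Txnrd1 had several windows, not all of them with a match. The long antioxidant response element, TGACTCAGC or TGAGTCAGC, bound by Nrf2 with small Maf proteins, was in the windows of Srxn1 and Prdx1 and in 0.706% of all 32851 windows. The shorter core TGACNNNGC, which takes in TGACTCAGC, was in the windows of Prdx1, Gclm and Txnrd1 and in 10.2% of all windows. The ATF4 core TGATGNAA was in the windows of Slc7a11, which has 2 matches, and Chac1, and in 3.45% of all windows. Capitals mark the matches of these motifs on either strand, each sequence runs 5′ to 3′ on the gene's strand, and it stops before the annotated first exon:
Srxn1 (chr2:152105274-152105515, forward strand): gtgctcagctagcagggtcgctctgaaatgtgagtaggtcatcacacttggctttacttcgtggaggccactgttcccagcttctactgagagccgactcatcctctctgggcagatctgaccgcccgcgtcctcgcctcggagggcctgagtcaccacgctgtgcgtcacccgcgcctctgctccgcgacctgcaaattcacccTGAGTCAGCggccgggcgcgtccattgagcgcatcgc
Prdx1 (chr4:116685349-116685543, forward strand): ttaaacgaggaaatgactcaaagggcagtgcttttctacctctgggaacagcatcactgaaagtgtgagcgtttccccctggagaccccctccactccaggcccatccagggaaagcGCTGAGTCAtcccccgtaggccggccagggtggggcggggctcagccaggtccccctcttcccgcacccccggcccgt
Slc7a11 (chr3:50443615-50443863, reverse strand): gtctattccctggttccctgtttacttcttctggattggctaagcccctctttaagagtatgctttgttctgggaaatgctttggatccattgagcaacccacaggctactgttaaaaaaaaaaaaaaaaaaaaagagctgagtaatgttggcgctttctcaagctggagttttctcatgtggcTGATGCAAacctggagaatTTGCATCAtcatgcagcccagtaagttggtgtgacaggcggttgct
Chac1 (chr2:119350992-119351228, forward strand): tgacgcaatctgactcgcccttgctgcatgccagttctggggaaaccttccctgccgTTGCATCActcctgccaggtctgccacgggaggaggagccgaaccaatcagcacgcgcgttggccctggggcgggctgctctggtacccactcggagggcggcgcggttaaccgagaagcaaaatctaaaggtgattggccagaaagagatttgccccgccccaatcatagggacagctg
Distances run to the RefSeq start site, which lies past the end of the printed stretch. Of the 250 bases, 242 are printed for Srxn1 and 195 for Prdx1. The match in Srxn1 begins 45 bases before its RefSeq start site and that in Prdx1 133 bases before. Of these, Srxn1 lay above both controls with DMF and Prdx1 between them. The matches in Slc7a11 begin 66 and 47 bases upstream and that in Chac1 193 bases upstream, and both genes lay above both controls. A match of letters describes the sequence and does not show binding.

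The other genes of the pathway were read from 9 lists of 110 genes, of which 84 were tested. limma called 0 of them, with 6 at an unadjusted p under 0.05, 1 higher and 5 lower (3.14% and 6.31% of all tested genes). voom on the recovered reads also called 0, with 12 at an unadjusted p under 0.05. Of the 84, 19 were above both controls with DMF and 31 below both, against the 26.4% and 26.8% of all tested genes given above, and several of the lists that follow lie near these shares. The list medians below depend on the controls used, and the median of all tested genes stood at -0.05 when control replicate 1 was left out and at 0.01 when control replicate 2 was. Glutathione transferases, which attach glutathione to electrophiles, lay above both controls in 3 and below both in 7 of 12 tested genes, with a median difference of -0.56, and of -0.97 when control replicate 1 was left out or -0.16 when control replicate 2 was. Gstt1 was at 33.5 ± 14.1 FPKM without DMF and at 6.26 ± 1.72 FPKM with it (SD, n = 2), a difference of -2.21 ± 0.37 (SE, limma adjusted p = 0.237). Mgst2, a microsomal member, was at 8.65 ± 1.66 and 2.72 ± 0.199 FPKM and Gstk1, a mitochondrial and peroxisomal one, at 2.53 ± 0.703 and 1.09 ± 0.167 FPKM (adjusted p = 0.222 and 0.503). Glutathione peroxidases had 3 tested genes with a median of -0.51, and of -1.10 when control replicate 1 was left out or -0.44 when control replicate 2 was. Gpx4, which removes lipid peroxides, was at 91.5 and 214 FPKM in the controls and 66.4 and 68.0 FPKM with DMF, below both, whereas for Gpx1 (233 and 524 FPKM against 246 and 243) and Gpx3 the groups overlapped.

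Among 5 tested genes of glutathione breakdown, 2 lay below both controls and none above. Cndp2, a dipeptidase that splits cysteinylglycine, was at 65.7 ± 17.7 FPKM without DMF and at 28.9 ± 1.51 FPKM with it (SD, n = 2, limma adjusted p = 0.345), and Ggt7 at 23.9 ± 1.97 and 21.1 ± 0.405 FPKM. Of 9 tested genes that supply cysteine and glutamate, 4 lay above both controls and 1 below. Slc1a4, a transporter of neutral amino acids that include cysteine, was at 3.97 ± 0.0808 and 8.55 ± 0.589 FPKM (adjusted p = 0.258). Glul, which makes glutamine from glutamate, lay below both controls at 14.1 ± 0.763 against 19.6 ± 1.18 FPKM.

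Thioredoxin partners, listed together with thioredoxin-like proteins, lay above both controls in 5 and below both in 4 of 18 tested genes. Txnip, which binds and inhibits thioredoxin, was at 80.1 ± 18.7 FPKM without DMF and at 50.2 ± 2.03 FPKM with it (SD, n = 2, limma adjusted p = 0.533). Txndc15 was lower too, at 9.70 ± 2.57 and 6.75 ± 0.454 FPKM, and Txndc11 higher, at 4.53 ± 0.343 and 5.98 ± 0.0283 FPKM. Of 8 peroxiredoxins and sestrins, 1 lay above both controls and 4 below. Prdx2, a close relative of Prdx1, was at 92.4 and 186 FPKM in the controls and 65.4 and 62.8 FPKM with DMF, below both. Sesn2, a stress-induced sestrin, was at 54.2 ± 2.63 and 75.9 ± 0.931 FPKM, and Sesn1 at 11.4 ± 0.993 and 8.47 ± 0.687 FPKM (adjusted p = 0.543 and 0.554). Glutaredoxins and methionine sulfoxide reductases had none above and 3 of 7 below both controls, with Glrx at 3.46 ± 0.269 and 2.05 ± 0.266 FPKM, Msrb1 at 32.7 ± 18.5 and 16.9 ± 0.786 FPKM and Msrb2 at 4.63 ± 0.753 and 3.32 ± 0.314 FPKM. Genes that make selenoproteins such as Txnrd1 lay above both controls in 2 and below both in 2 of 7, with Sepsecs at 2.80 ± 0.754 and 3.78 ± 0.281 FPKM, Scly at 4.60 ± 0.810 and 3.24 ± 0.391 FPKM and Pstk at 1.78 ± 0.195 and 1.59 ± 0.0612 FPKM.

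Nrf2 targets outside the system lay above both controls in 4 and below both in 7 of 15 tested genes, with a median of -0.31, and of -0.43 when control replicate 1 was left out or -0.041 when control replicate 2 was. Nqo1, a quinone reductase below the filter, had 21 reads in the pooled controls and 75 in the pooled DMF libraries. Scaled to the library sizes that the FPKM imply, the ratio was 3.06 (95% exact interval 1.86 to 5.22, counting error only). Of the others below the filter, Osgin1 lay below both controls, at 0.286 and 0.120 FPKM with DMF against 0.549 and 0.564. Me1 lay above both controls, with 2 to 7 reads per library. Hmox1, heme oxygenase 1, was at 8.82 ± 2.31 FPKM without DMF and at 13.6 ± 0.201 FPKM with it (SD, n = 2). Akr1b8, an aldo-keto reductase, and Cbr1, a carbonyl reductase, lay below both controls, at 12.0 ± 0.0416 against 20.4 ± 6.37 FPKM and 9.01 ± 0.0972 against 15.8 ± 5.37 FPKM (adjusted p = 0.533 and 0.536).

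**Figure D4:**
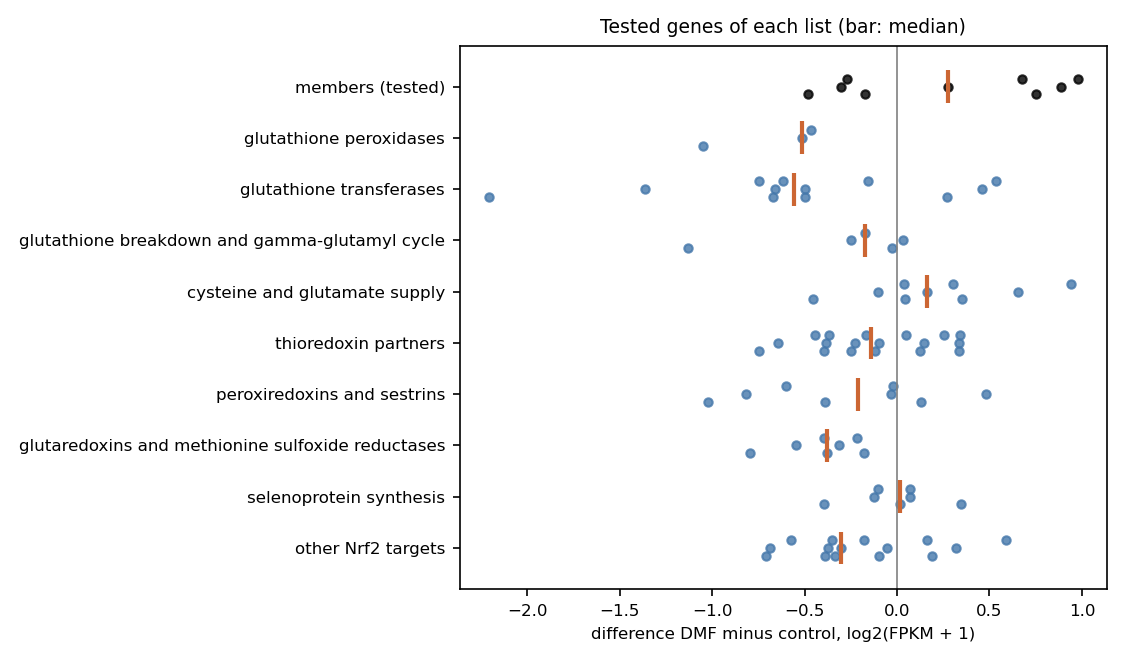
Difference DMF minus control in log2(FPKM + 1), horizontal axis, for each tested gene of the members (black) and of the 9 further lists (blue), with orange bars for medians. The medians run from -0.56 in the glutathione transferases to 0.16 in cysteine and glutamate supply, and that of the members is 0.27. Both ends depend on the controls, at -0.97 and 0.018 without control replicate 1 and at -0.16 and 0.24 without control replicate 2.

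Marker lists of T cells and of other cells gave the following levels. All 10 T cell markers were detected, 7 of them below both controls with DMF and 0 above, and summed to 2570 and 4545 FPKM in the controls and 2417 and 2345 FPKM with DMF. B cell markers lay above both controls in 5 and below both in 1 of 7 tested, and the list summed to 82.3 and 122 FPKM in the controls and 88.1 and 87.4 FPKM with DMF. Markers of CD8 T and NK cells lay below both controls in 5 of 5 tested, with sums of 132 and 203 FPKM without DMF and 13.3 and 14.0 FPKM with it, and Ncr1 and Klrb1c were at 0 in every library. Gzmb alone held most of the control sums, at 98.1 and 131 FPKM against 5.14 and 5.82 with DMF. Cd8a was low throughout, at 1.68 and 2.17 FPKM in the controls and 0.105 and 0.0589 with DMF. Of the myeloid markers, 2 of 3 tested lay below both controls and 1 above, with sums of 8.97 and 12.5 against 8.95 and 7.05 FPKM. In such bulk RNA fewer cells of a type and less RNA per cell cannot be told apart. The part of these cells in the members' differences was not tested.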

How the data were processed

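Per the labels' protocols, total RNA was read on an Illumina HiSeq2000, for 4 samples. The authors deposited 1 FPKM value per gene and sample beside the gene's name, position and length, per the file headers. edgeR and the build mm8 stand in the submitters' processing notes, without their roles. The sources used here do not name an aligner or counter. GENCODE M21 (GRCm38) holds 54409 of the identifiers and places 98.3% of these exactly as the table does, all 10 members included, so GRCm38 positions were used.

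FPKM times gene length gave whole multiples of 1 step for 100% of values (tolerance 0.01), and hence reads. The controls have 17171199 (replicate 1) and 15900118 (replicate 2), and the DMF libraries 17134385 and 17516953. The FPKM imply library sizes of 1.77e+07 and 1.39e+07 in control replicates 1 and 2, and of 1.83e+07 and 1.87e+07 in the DMF replicates. These are not the read totals, so the FPKM hold a further scaling that the sources used here do not describe. The voom fit used the read totals. Counting intervals cover counting error only. limma 3.58.1 in R 4.3.3 (lmFit, eBayes with a trend) was run on log2(FPKM + 1), DMF minus control, two-sided, over 12166 genes (mean of 1 FPKM or more), and p-values were adjusted by Benjamini-Hochberg, with calls under 0.05. It was also run on simulated libraries drawn from a shared mean per gene, apart from planted changes. These held no library that stands apart and no gene length trend, so that run does not show how the fit behaves here. The deposited unit is FPKM, so reads were tested only as an alternative, with limma's voom.

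Alternatives were pseudocounts of 0.1 and 0.5, no level filter or one of 5 FPKM, scaling by trimmed means (TMM), quantile normalization, eBayes without a trend, voom, removal of a loess trend in gene length (span 0.3), a replicate block, and leaving out single libraries. All 10 members were named, and from each further list up to 3 genes with the smallest p, and Nqo1. One gene that this rule names is not reported here. Slc3a2, Osgin1, Me1 and single cell markers were named after their values were seen. Members and lists were chosen with earlier results of these data known. Reads of overlapping genes may be shared: Txnrd1 overlaps Eid3 (at most 3.31 FPKM) and Gss overlaps Acss2 (at most 1.58 FPKM). Whether counting used strand is not stated there.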

Additional observations from a re-analysis of the deposited data

How the results depend on the processing

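No member passed the threshold under any alternative that kept all 4 libraries. Changing the level filter, dropping the eBayes trend or adding the replicate block cannot change a member's difference. Over all alternatives that kept the 4 libraries, these included, 84 of 87 member values kept their direction. The exceptions were Txn1, at 0.41 under quantile normalization and 0.16 with the gene length trend removed, and Prdx1, at 0.056 under quantile normalization. Sizes moved too: with the gene length trend removed Gclm was at 0.15 and Gsr at -0.29, and under quantile normalization Gsr was also at -0.29. Leaving out 1 library moved the members' median from 0.13 to 0.45 and the members above every control that was kept from 6 to 9. The 9 came without control replicate 2, and so against control replicate 1 alone. The counts of genes and members called moved too. Of these, 7420 genes passed without control replicate 1 and 1007 without control replicate 2, with 8 and 5 members. Gss, Txn1 and Prdx1 were at -0.63, -0.80 and -0.87 without control replicate 1 and at 0.083, 0.45 and 0.26 without control replicate 2. Without either DMF library no member passed and the spread rests on the controls alone. With a mean FPKM of at least 5, which leaves 6 members, the median was -0.22. voom moved the median of all genes to 0.15. Replicate numbers are shared between groups but no label pairs them. The correlation of same-numbered libraries' deviations was -0.02, and with the replicate block 552 genes and 0 members passed. Depth limits Slc7a11, with 6 to 24 reads per library.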
